A study of Mus musculus with 2 samples.

Results

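This account follows the genes by which endothelium holds and passes leukocytes, in vascular cells flow-sorted from mouse lung. The 10 genes, Icam1, Icam2, Vcam1, Sele, Selp, Cd34, Madcam1, Ackr1, Cd99l2 and Podxl, were chosen by symbol. All probe sets that carry 1 of these symbols alone in the platform annotation were taken, which gave 18 of the 45037 probe sets that are not array controls, and 10 of 18193 genes. The old group is 1 array of C57BL/6J mice labelled old, and the young group is 1 array of C57BL/6J mice labelled young. Per the labels, the left lung lobe had been resected in both groups (pneumonectomy) and the cells came from the residual right lobes of mature lung. The ages, the time after surgery, the sorting markers and the number of animals behind an array are not stated in these sources, and unoperated mice were not analysed here. With 1 array per group there is no replicate and no statistical test, and each difference is between these 2 arrays. The array labelled old carried markers of tissue that its label does not name: Alb, the albumin gene of hepatocytes, had a signal of 8900 there and 20.5 in the young, and Clec4g, a gene of liver sinusoidal endothelium, 41144 and 792, while the lung epithelial gene Sftpc was low on both (18.4 and 10.8). Mesothelial and macrophage markers were also far higher there. Lymphatic endothelial markers such as Prox1 (60.6 in the old and 6885 in the young) went the other way. Age, tissue of origin and cell make-up therefore cannot be told apart in any old-minus-young value below, and "old" and "young" mean the arrays so labelled.

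Leukocytes leave the blood in steps. Selectins on the endothelium (E-selectin from Sele, P-selectin from Selp) slow flowing cells to a roll by binding sialylated and fucosylated glycans. Chemokines displayed on the vessel wall, some of them carried across it by the atypical receptor Ackr1, then activate leukocyte integrins, which grip immunoglobulin-type ligands such as ICAM-1, ICAM-2, VCAM-1 and MAdCAM-1. Molecules at the cell border, CD99-like 2 among them, help the cell through. The sialomucins CD34 and podocalyxin (Podxl) coat the luminal face, where they can act as selectin ligands in high endothelial venules or as a negatively charged cover. Sele, Vcam1 and Icam1 are textbook genes of endothelium stimulated by cytokines through NF-kappaB, whereas Icam2 is made constitutively and P-selectin is stored ready-made in Weibel-Palade bodies. In the lung, capillaries can arrest leukocytes without selectins, and Ackr1 is known as a marker of venous endothelium.

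The adhesion genes went in both directions. Ackr1, Vcam1, Icam1, Sele and Podxl were higher by 2-fold or more in the old sample, Selp and Cd34 were higher by 2-fold or more in the young sample, and Icam2 and Cd99l2 were within 2-fold. Madcam1 was below the floor on both arrays. The floor, 73.7 signal units, is the higher of the medians of both arrays after scaling, and a signal below it has no order. A fold against a signal below the floor is a lower bound, computed against the floor. Of 12105 genes above the floor on at least 1 array, 16.0% were higher by 2-fold or more in the old sample and 11.3% in the young, against 5 and 2 of the 9 measured adhesion genes. Vcam1, Sele and Ackr1 entered through the old array alone, so a difference in that direction was the only one they could show, and the counts describe the genes without supporting anything further. The median log2 ratio (old minus young throughout) of the 9 was 1.21, the value of Podxl, against 0.03 over all measured genes. Their SD was 2.87, against 1.35 over all measured genes. Both SDs take bounds as values and so depend on the floor.

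**Figure D1:**
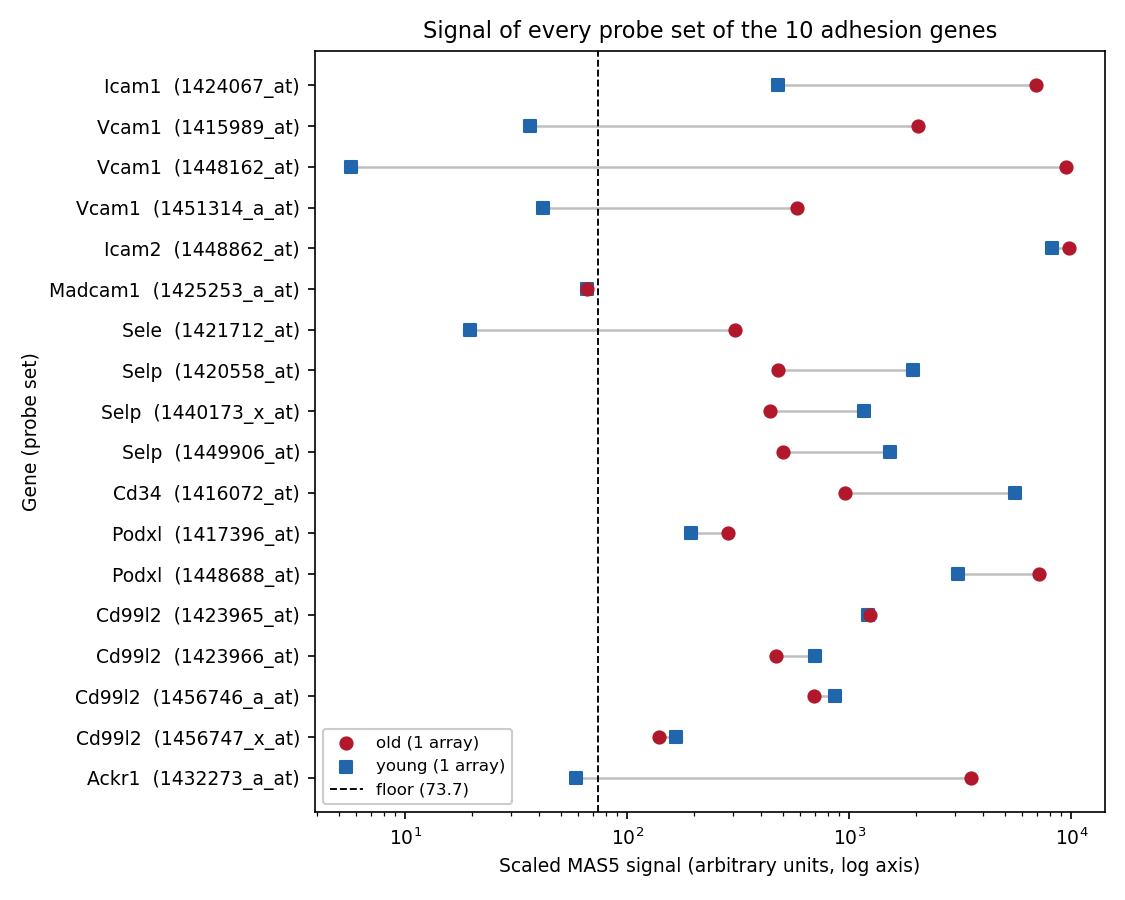
Scaled MAS5 signal (log axis, arbitrary units) of each of the 18 probe sets, with 1 point for the old array and 1 for the young array, and a dashed line at the floor of 73.7. The 3 Vcam1 probe sets, Sele and Ackr1 cross the floor between the arrays, the 3 Selp probe sets and Cd34 lie higher in the young sample, and both Madcam1 points lie under the floor.

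The start-site windows of genes that went to opposite arrays are shown first, since Sele and Selp, which are close relatives, differ in direction. Icam1, Sele and Ackr1 were higher in the old sample and Selp and Cd34 in the young. Each window runs from 250 bases before to 50 after a RefSeq transcription start in GRCm38.p6, 5′ to 3′ on the gene's strand. Of the 10 genes, 7 were matched in the window table. Capitals mark matches, on either strand, to a loose kappaB-like motif (GGNNNTTCC) or to the AP-1 motif (TGANTCA), which do not overlap each other in these windows.
Icam1, chr9:21015690-21015989, + strand: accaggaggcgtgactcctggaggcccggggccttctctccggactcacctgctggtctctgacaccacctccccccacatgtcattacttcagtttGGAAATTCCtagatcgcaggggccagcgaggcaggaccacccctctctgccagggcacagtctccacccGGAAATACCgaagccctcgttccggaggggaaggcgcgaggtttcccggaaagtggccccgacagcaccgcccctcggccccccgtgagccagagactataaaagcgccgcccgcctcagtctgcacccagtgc
Sele, chr1:164047984-164048283, + strand: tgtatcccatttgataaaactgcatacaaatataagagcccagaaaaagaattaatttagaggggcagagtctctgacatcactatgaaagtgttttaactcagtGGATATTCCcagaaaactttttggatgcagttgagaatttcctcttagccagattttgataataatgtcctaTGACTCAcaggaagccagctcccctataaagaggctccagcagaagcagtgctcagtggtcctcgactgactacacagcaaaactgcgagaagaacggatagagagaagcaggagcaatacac
Ackr1, chr1:173333454-173333753, - strand: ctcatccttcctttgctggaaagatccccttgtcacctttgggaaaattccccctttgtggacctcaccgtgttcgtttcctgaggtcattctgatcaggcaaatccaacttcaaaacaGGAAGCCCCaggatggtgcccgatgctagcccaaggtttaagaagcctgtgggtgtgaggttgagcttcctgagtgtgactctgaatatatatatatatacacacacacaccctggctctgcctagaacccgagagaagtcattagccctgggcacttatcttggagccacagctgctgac
Selp, chr1:164115014-164115313, + strand: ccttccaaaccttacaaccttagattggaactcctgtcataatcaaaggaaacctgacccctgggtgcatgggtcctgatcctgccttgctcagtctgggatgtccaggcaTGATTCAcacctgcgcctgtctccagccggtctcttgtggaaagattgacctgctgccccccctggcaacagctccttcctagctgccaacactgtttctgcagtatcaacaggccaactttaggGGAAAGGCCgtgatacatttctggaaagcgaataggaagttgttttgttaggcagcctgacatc
Cd34, chr1:194938571-194938870, + strand: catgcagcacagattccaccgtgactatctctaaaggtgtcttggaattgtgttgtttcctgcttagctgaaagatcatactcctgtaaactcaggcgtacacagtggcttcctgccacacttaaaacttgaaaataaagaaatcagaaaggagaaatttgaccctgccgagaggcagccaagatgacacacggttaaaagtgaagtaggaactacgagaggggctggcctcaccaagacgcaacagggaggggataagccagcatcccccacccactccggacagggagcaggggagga
The Icam1 window held 2 kappaB-like matches. GGAAATTCC begins 153 bases before the start and matches on both strands, and GGAAATACC begins 84 bases before it. The Sele window held the kappaB-like match GGATATTCC, 145 bases before the start, and an AP-1 match 73 bases before it. In the Selp window GGAAAGGCC begins 14 bases before the start and an AP-1 match 139 bases before it, in the Ackr1 window GGAAGCCCC begins 131 bases before the start, and the Cd34 window held neither motif. Matches were therefore present in genes higher on either array, and Madcam1, below the floor on both, also had 2 kappaB-like matches. A kappaB-like match was found in 18.5% of all 32851 windows and an AP-1 match in 7.81%, against 5 and 2 of the 7 windows of adhesion genes. These were among 6 motifs searched on both strands, chosen after the sequences had been read. The others, not in capitals, were an ATF motif (TGACNTCA, 2 of the 7 windows against 8.83% of all), a GATA motif (AGATAA, 1 against 11.2%), a TATA motif (TATAAA, 2 against 13.6%) and a KLF motif (CACCC, 5 against 57.5%). These matches are letters in a window, and binding was not measured.

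Among the immunoglobulin-type integrin ligands, Icam1 and Vcam1 were far higher in the old sample, Icam2 was similar on both and Madcam1 was not measurable. Icam1 encodes ICAM-1, the ligand of the leukocyte integrins LFA-1 and Mac-1. Its probe set had a signal of 6948 in the old and 476 in the young sample, both above the floor, a 14.6-fold difference (log2 ratio 3.87). Only 260 of the 12105 measured genes (2.15%) had a higher ratio. The Icam1 ratio stayed between 3.72 and 3.92 over all 8 alternative ways of processing. With the higher floor its young signal was below the floor, so the value of 3.83 was a lower bound.

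Vcam1 encodes VCAM-1, the ligand of the integrin VLA-4 (alpha4 beta1). Its 3 probe sets had signals of 9446, 2041 and 582 in the old sample and of 5.66, 36.3 and 41.5 in the young. All 3 were above the floor in the old sample and below it in the young. Of the 12105 measured genes, 1446 were above the floor on the old array alone. The differences were at least 128-fold, at least 27.7-fold and at least 7.90-fold. The probe sets shared a direction and differed in size by 4.02 on the log2 scale, which follows their signal in the old sample because the floor is the same for each. The middle one, with the highest mean log2 signal, represents the gene (log2 ratio of at least 4.79), and 138 measured genes (1.14%) had a ratio above that bound. With the higher floor the Vcam1 bound was 2.06, and with the lower floor both arrays were above it and the ratio was 5.81.

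Icam2 encodes ICAM-2, a further LFA-1 ligand that resting endothelium carries. Its signals were 9731 in the old and 8165 in the young sample, a ratio of 1.19 (log2 ratio 0.25). The difference was within 2-fold under all 8 alternatives, and its sign turned with quantile normalization (-0.13) and loess (-0.02). Icam1 exceeded Icam2 by 3.61 in log2 ratio, a difference in which the scaling of the arrays as a whole cancels. Madcam1 encodes MAdCAM-1, the mucosal address for leukocytes with the integrin alpha4 beta7. Its signals of 65.7 and 65.4 both lay below the floor, so they have no order and no fold is given.

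The selectins parted. Sele, the gene of E-selectin, had a signal of 305 in the old sample and 19.5 in the young, the latter below the floor, a difference of at least 4.14-fold (log2 ratio of at least 2.05). Of the measured genes, 862 (7.12%) had a ratio above that bound. The old signal was itself low: with the higher floor Sele was below the floor on both arrays and was not measured, and with the lower floor the bound was 3.91.

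Selp, the gene of P-selectin, had 3 probe sets with signals of 475, 504 and 437 in the old sample and of 1924, 1526 and 1162 in the young. All 6 values were above the floor and the young array was higher in each probe set, by 4.05-fold, 3.03-fold and 2.66-fold. The third of these probe sets has a name ending in _x_at, a kind that can match several transcripts. The representative log2 ratio was -2.02, lower than in 11676 of the measured genes when bounds are counted as values. It lay between -2.15 and -1.68 over the 8 alternatives. With the higher floor its old signal was below the floor, so the value of -1.98 was a bound. Sele and Selp were thus at least 4.07 apart in log2 ratio, in opposite directions.

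The sialomucins parted as well. Cd34 encodes the sialomucin CD34 of small-vessel endothelium and blood progenitors, and its signal was 954 in the old and 5540 in the young sample. Both values were above the floor and the young was 5.81-fold higher (log2 ratio -2.54), the lowest ratio of the 9 measured genes. With bounds counted as values, 251 measured genes (2.07%) had a lower ratio, which is a minimum. The ratio of Cd34 lay between -2.68 and -2.49 over the 8 alternatives. Podxl encodes podocalyxin, a CD34 relative on the luminal endothelial membrane. Its brighter probe set had signals of 7113 in the old and 3072 in the young sample, a 2.32-fold difference (log2 ratio 1.21), and its dimmer one 285 and 194, a 1.47-fold difference. Both were higher in the old sample, only the brighter passed 2-fold, and their mean log2 ratio of 0.88 fell short of it. Podxl exceeded Cd34 by 3.75 in log2 ratio.

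Cd99l2, a CD99 relative at endothelial borders that takes part in leukocyte passage, had 4 probe sets. Their signals were 1243, 691, 469 and 138 in the old sample and 1217, 862, 698 and 166 in the young. The log2 ratios ran from -0.57 to 0.03, with 3 of the 4 on the young side and each within 2-fold. The sign of the representative ratio, 0.03, changed with the values as deposited (-0.10), and the mean over its probe sets was -0.28.

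Ackr1 encodes the atypical chemokine receptor 1, formerly DARC, which binds many inflammatory chemokines without signalling through G proteins. Its probe set had a signal of 3529 in the old sample and 58.8, below the floor, in the young, a difference of at least 47.9-fold (log2 ratio of at least 5.58). Counted at this bound, 66 measured genes (0.545%) had a higher ratio. The young signal was close to the floor, and with the higher floor the Ackr1 bound was 2.85. Set against Selp, also known from venous endothelium, the difference in log2 ratio was at least 7.60.

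In order of log2 ratio the 6 genes above the floor on both arrays ran Icam1, Podxl, Icam2, Cd99l2, Selp and Cd34. The SD between probe sets that share a gene, 0.42 across 4514 genes, was the only repeated measurement, and it says nothing of the mice. Icam2 and Cd99l2 differed by 0.22, less than this spread. Selp and Cd34 differed by 0.52, which is within the range of 0.61 over the probe sets of Selp itself, so their order is not settled. Podxl and Icam2 differed by 0.96, with a range of 0.65 over the probe sets of Podxl. The SD is that of a single ratio and was not widened for a difference of 2 ratios. Ackr1, Vcam1 and Sele are bounds and have no order among themselves.

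**Figure D2:**
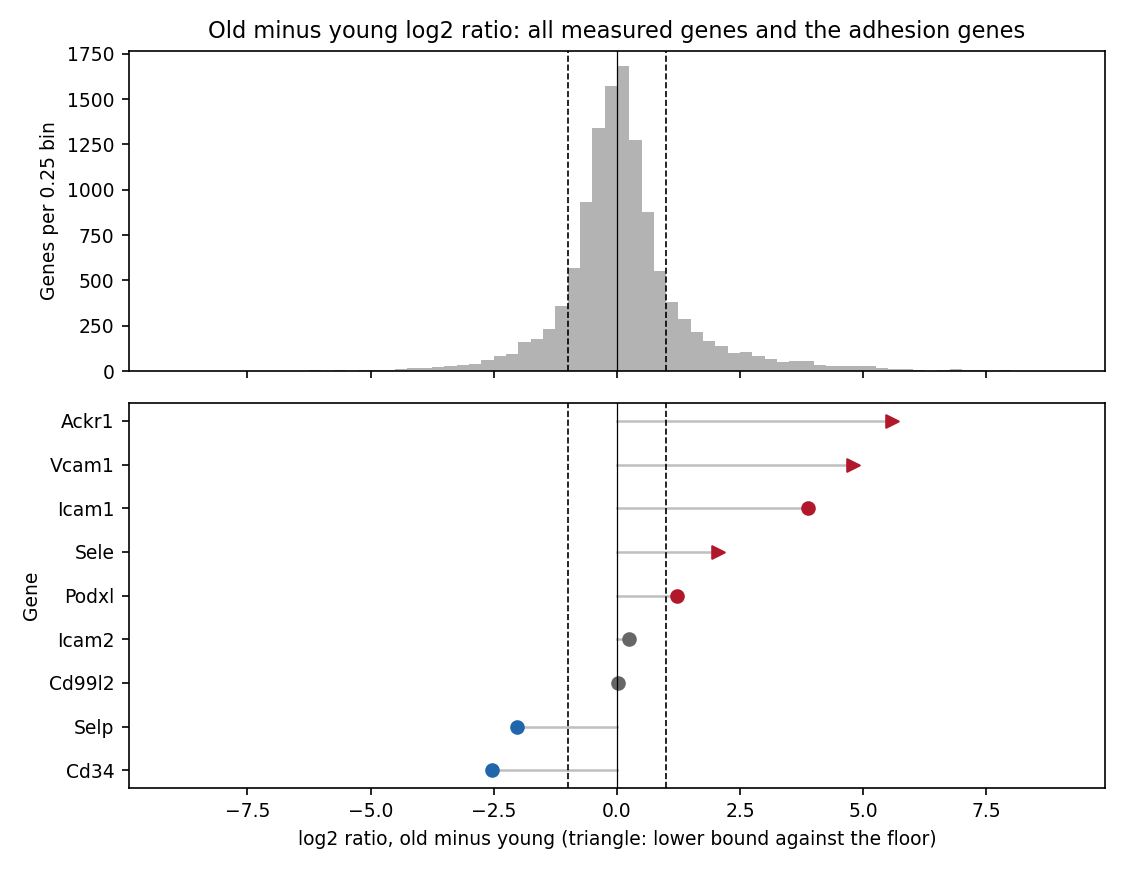
Histogram of the log2 ratio, old minus young, of the 12105 measured genes in bins of 0.25 (top) and the same ratio for the 9 measured adhesion genes (bottom; triangles are lower bounds, red and blue are higher by 2-fold or more in the old and the young array, dashed lines mark 2-fold). Ackr1, Vcam1 and Icam1 lie in the far right tail, Cd34 and Selp in the left tail, and Icam2 and Cd99l2 near 0.

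The cells carried general endothelial genes on both arrays. All 15 pan-endothelial markers were above the floor on both, and their median log2 ratio was 0.56 (0.04 to 0.56 over the alternatives). They were not level: 6 were higher by 2-fold or more in the old sample and 1 in the young, with ratios from -1.12 to 3.19. Pecam1 and Cdh5, which encode the junction proteins PECAM-1 and VE-cadherin, had ratios of -0.04 and 0.33. Set against Pecam1, the log2 ratio of Icam1 was 3.91 higher, those of Vcam1 and Ackr1 were at least 4.84 and at least 5.63 higher, and those of Selp and Cd34 differed by -1.97 and -2.49. The directions of these 5 genes were the same against Pecam1, Cdh5 and the pan-endothelial median. Podxl was 1.26, 0.88 and 0.65 above these yardsticks, so its distance was under 2-fold for the latter 2. Its log2 ratio of 1.21 lay within the range of the 15 markers.

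Markers of other cell types moved with the array as well. Summed over the list, pan-leukocyte markers had a signal of 15138 in the old and 1927 in the young sample, macrophage and monocyte markers 25910 and 752, and fibroblast markers 22914 and 332. Pericyte and smooth muscle markers summed to 24469 and 465, mesothelial markers to 17178 and 193, and hepatocyte markers to 16369 and 452. Most of the pericyte and smooth muscle sum in the old sample came from the contractile genes Acta2 (15847) and Tagln (6548), named after their values were seen. The Acta2 probe set is of a kind that can match several transcripts, and the pericyte gene Pdgfrb had 281 there. Liver sinusoidal endothelial markers summed to 229191 and 28837 and general capillary markers to 51783 and 11624. Thus each of these lists was higher in the old sample, the array on which Icam1, Vcam1, Sele and Ackr1 were higher. Counted by gene, 9 of 10 pan-leukocyte, 11 of 12 macrophage, 6 of 7 fibroblast, 7 of 9 pericyte, 8 of 8 mesothelial, 8 of 8 hepatocyte, 9 of 11 sinusoidal and 5 of 8 capillary markers above the floor were higher there by 2-fold or more. Over all 12105 measured genes the share was 16.0%. Markers below the floor in the young sample could show only this direction.

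Defining markers of several of these cells were below the floor in the young sample: Ptprc (CD45) for leukocytes, C1qa for macrophages, Col1a1 for fibroblasts, Pdgfrb for pericytes, Upk3b for mesothelium and Alb for hepatocytes. Other markers of the same lists were above it there: 4 of 10 pan-leukocyte, 3 of 12 macrophage and 1 of 9 fibroblast markers. So were 2 of 9 pericyte, 1 of 8 mesothelial and 1 of 8 hepatocyte markers. The genes named do not show these cells to be absent. Vcam1 is also known from fibroblasts, pericytes and liver macrophages, Icam1 from leukocytes and mesothelium, and Podxl and Cd34 from mesothelial and stromal cells respectively. The part of these cells in the differences was not tested. In a sorted population measured in bulk, fewer cells of a type and less RNA per cell cannot be told apart.

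Lymphatic endothelial markers went to the young array, with summed signals of 40644 in the old and 72828 in the young, 5 of 8 higher in the young and 0 in the old. Prox1, the lymphatic transcription factor, was below the floor in the old sample and 6885 in the young. Nts (at least 141-fold), Mmrn1 (135-fold) and Reln (37.6-fold) were also higher in the young sample. Flt4, Lyve1 and Sox18, with high signals on both arrays, were within 2-fold. These 6 genes were named after their values were seen. The markers of platelets, which also store P-selectin, had 2 of 5 measured genes higher in the old and 1 in the young sample, with sums of 1554 and 830. Neutrophil markers had sums of 2143 and 135, with none of 7 above the floor in the young sample. Cxcr2, Mmp8, Camp and Ltf were below it on both arrays. T, B and natural killer cell markers summed to 1781 and 122, with none of 10 above the floor in the young sample. Lung epithelial markers were low on both, with 774 and 458, and 6 of 10, among them the surfactant gene Sftpc and Aqp5, were below the floor on both. Their part in the values of Selp and Cd34 was not tested.

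**Figure D3:**
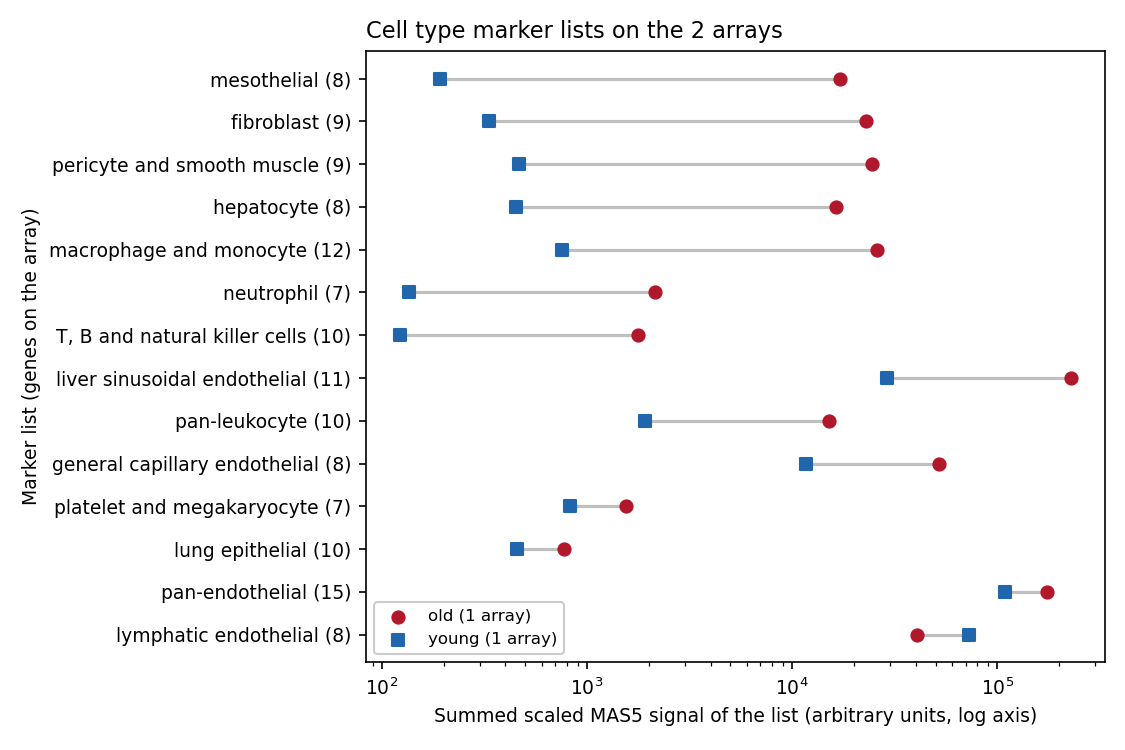
Summed scaled MAS5 signal (log axis, arbitrary units) of each cell type marker list in the old and the young array, values below the floor included, with the number of genes on the array in brackets. The sums lie higher in the old sample for each list drawn except the lymphatic one, and pan-endothelial markers (175228 and 109282) are among the closest pairs.

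The partners of the adhesion genes were followed in 12 lists with 165 genes besides the members, 145 of them above the floor on at least 1 array. Of these, 64 (44.1%) were higher by 2-fold or more in the old and 13 (8.97%) in the young sample. The shares over all 12105 measured genes were 16.0% and 11.3%. The lists were chosen with earlier results of these data known. A gene that entered through 1 array alone could show only that direction. The counts by list therefore describe the genes without supporting anything further. The leukocyte side of the contacts gave 7 of 12 genes higher in the old sample and 1 in the young (median 1.14). Cd44, a hyaluronan receptor that E-selectin can bind, had 1622 in the old sample and a signal below the floor in the young (at least 22.0-fold). Itgal and Itgb2, the chains of LFA-1, were at least 9.90-fold and 5.08-fold higher in the old sample, while Itgam, the alpha chain of Mac-1, was below the floor on both.

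The integrin chains that pair with VCAM-1 and MAdCAM-1 differed widely in signal. Itga4 had 176 in the old sample and 31.6, below the floor, in the young (at least 2.39-fold), and Itgb7 had 149 and 23.9 (at least 2.03-fold). Itgb1, the beta chain of VLA-4 and made by most cells, was 3622 and 4566 (log2 ratio -0.33). Itga9, whose product pairs with the same beta chain and also binds VCAM-1, had 2078 and 507, both above the floor (4.10-fold higher in the old sample), and was named after its value was seen. Selplg, the gene of the P-selectin ligand PSGL-1, was at least 4.74-fold higher in the old sample (349 against a signal below the floor), opposite to Selp. Glg1, the E-selectin ligand ESL-1, was within 2-fold (4268 and 3493), and Cd24a, a P-selectin ligand on myeloid cells and epithelium, was 6.17-fold higher in the young sample (943 and 5812). Itgb2 is also among the pan-leukocyte markers above, which lie on the same array. With the higher floor 2 genes of this list were higher in the old sample, with a median of 0.43.

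Enzymes that build selectin ligand glycans split, with 4 of 12 higher in the old and 3 in the young sample (median 0.78). The acetylglucosaminyltransferase gene B3gnt3 (at least 9.57-fold), the sialyltransferase gene St3gal4 (7.38-fold) and the sulfotransferase gene Chst2 (6.89-fold) were on the old side. On the young side were the tyrosine sulfotransferase gene Tpst1 (6.48-fold), the fucosyltransferase gene Fut4 (at least 6.20-fold) and the branching enzyme gene Gcnt1 (3.09-fold). Fut7 and Chst4, which complete ligands of leukocytes and high endothelial venules, were below the floor on both arrays. Tpst1, Fut4 and Gcnt1, the 3 of the list on the young side, and Fut7 and Chst4 were named after their values were seen.

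Genes of the signals known to induce Icam1, Vcam1 and Sele lay mostly on the old side. Of 16 cytokine inducers and receptors, 12 were higher by 2-fold or more in the old sample and 0 in the young (median 2.10). Il1a, the gene of interleukin 1 alpha, had 11746 in the old and 4.50, below the floor, in the young sample (at least 159-fold). Il1b (1166 against 68.8, at least 15.8-fold) and Osmr, the oncostatin M receptor (5177 against 394, 13.1-fold), followed. Tnf, Tnfrsf1a and Il1r1, chosen after their values were seen, were at least 6.55-fold, 3.26-fold and 2.07-fold higher in the old sample.

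NF-kappaB and partner transcription factor genes gave 11 of 19 higher in the old and 0 in the young sample (median 1.73). Fos (110-fold), Irf1, an interferon regulatory factor (19.4-fold), and Nfkbiz, an NF-kappaB-induced cofactor (18.9-fold), were the furthest. The subunit gene Rela was within 2-fold (log2 ratio 0.64), and Nfkbia, the inhibitor that NF-kappaB itself induces, was 4.09-fold higher in the old sample; both were named after their values were seen. Genes known to restrain induction lay on the same side, with 8 of 13 higher in the old and 1, Foxp1 (named after its value was seen), in the young (median 1.08). They were led by the RNA-decay gene Zfp36 (203-fold), the nuclear receptor gene Nr4a1 (at least 68.8-fold) and Socs3 (26.1-fold). The Socs3 value comes from a probe set of a kind that can match several transcripts.

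Chemokines that Ackr1 can bind or endothelium can display had 8 of 12 genes higher in the old and 0 in the young sample (median 3.70, from 2.28 to 3.86 over the alternatives). Ccl5, Ccl8, Ccl17, Cxcl2, Cxcl9 and Cxcl10, listed for this reason, entered through the old array alone and could show only that direction. Cxcl10, which draws activated T cells, had 17896 in the old sample and 64.9, below the floor, in the young (at least 243-fold). Cxcl1, a neutrophil chemokine and an Ackr1 ligand, had 6632 and 75.7 (87.6-fold), its young signal just above the floor. Cxcl9 was at least 35.1-fold higher in the old sample. Ccl2, a monocyte chemokine that Ackr1 also binds, did not follow: its signals were 1312 and 2142 (log2 ratio -0.71). Ccl2 was named after its value was seen.

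**Figure D4:**
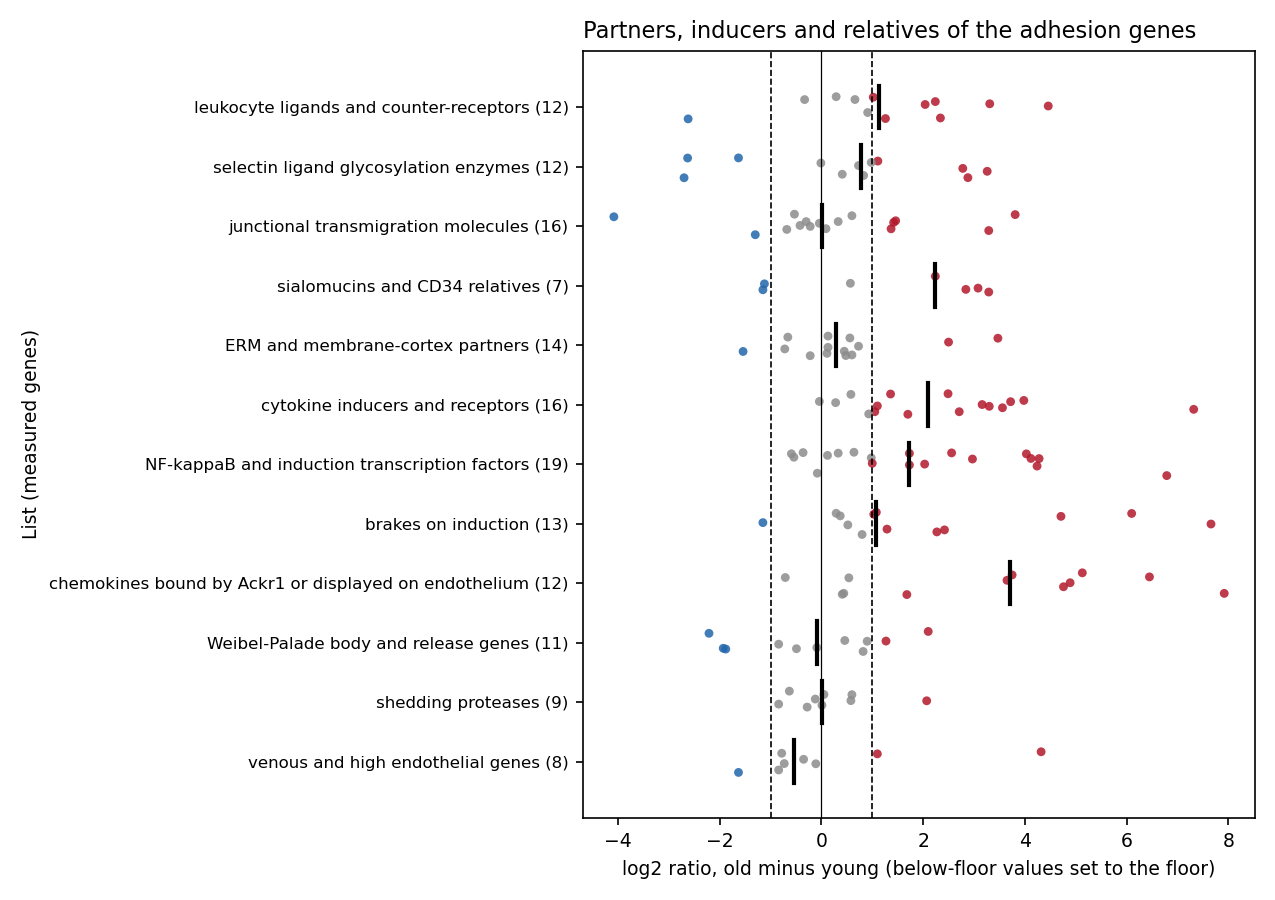
Log2 ratio, old minus young, of each measured gene in the 12 partner lists (1 point per gene, below-floor values set to the floor, red and blue for higher by 2-fold or more in the old and young array, spread vertically at random), with the list median as a black bar and the number of measured genes in brackets. The chemokine, cytokine and NF-kappaB lists have medians of 3.70, 2.10 and 1.73 and no blue point, while the Weibel-Palade, junctional and shedding lists have medians close to 0.

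The storage compartment of P-selectin gave no common direction. Of 11 measured genes of Weibel-Palade bodies and their release, 2 were higher in the old and 3 in the young sample (median -0.09, and 0.46 with the higher floor). On the young side with Selp were Angpt2, the Tie2 ligand stored in these bodies (829 and 3844, 4.64-fold), Sytl4 (103 and 393, 3.80-fold) and Edn1 (165 and 610, 3.69-fold, named after its value was seen). Rab27a, a GTPase of these bodies, was 4.28-fold higher in the old sample (897 and 210). Vwf, their main cargo, had signals of 342 and 612 and was within 2-fold (log2 ratio -0.84).

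The list of sialomucins and CD34 relatives, which also holds surface genes of other families, split as well. Of 7 measured genes, 4 were higher in the old and 2 in the young sample (median 2.24, the bound of Cd248). Emcn, the endothelial sialomucin endomucin, had 4980 in the old and 10788 in the young sample (2.17-fold), the direction of Cd34. Podxl2, the gene of endoglycan, was below the floor in the old sample and 164 in the young (at least 2.22-fold). The 4 on the old side were of other families. They were Mcam (9.77-fold), an immunoglobulin-type gene, and Cd93 (8.45-fold), Clec14a (7.16-fold) and Cd248 (at least 4.72-fold), which have C-type lectin domains. The sialomucin gene Cd164 was within 2-fold (log2 ratio 0.57). Glycam1, a mucin of high endothelial venules, was below the floor on both arrays. Podxl2, Cd248, Cd164 and Glycam1 were named after their values were seen.

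The cytoplasmic partners of these proteins were mostly within 2-fold, with 2 of 14 genes of the membrane cortex higher in the old and 1 in the young sample (median 0.29). The 2 were Slc9a3r1, the scaffold NHERF1 (8010 and 725, 11-fold), and Ezr, ezrin (3629 and 641, 5.67-fold), both of which bind podocalyxin. Msn, moesin, the main member of the ezrin family in endothelium, was within 2-fold (14195 and 9393, log2 ratio 0.60), as was Slc9a3r2 (6795 and 4989, log2 ratio 0.45). Vav2, an exchange factor, was 2.90-fold higher in the young sample. Ezr is also a gene of epithelial and mesothelial cells, whose markers are given above.

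Junctional molecules of leukocyte passage gave 5 of 16 higher in the old and 2 in the young sample, with a median of 0.02 whose sign turned under the values as deposited (-0.11), quantile normalization (-0.20) and loess (-0.06). Jam2, a junctional adhesion molecule, was 14.1-fold higher in the old sample (7649 and 544), Mcam 9.77-fold, and L1cam 17.0-fold higher in the young (111 and 1883). Cd99, the relative of Cd99l2, was 2.58-fold higher in the old sample (5658 and 2195), and Cd99l2 itself was within 2-fold. The Cd99 value comes from a probe set of a kind that can match several transcripts.

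The list of proteases that shed VCAM-1, ICAM-1 and selectins also holds genes that are not proteases. They are the protease inhibitor gene Timp3 and the inactive rhomboid genes Rhbdf1 and Rhbdf2, all named after their values were seen. Of the 9 measured genes of the list, 1 was higher in the old sample, the membrane protease gene Mmp14 (4.19-fold). The list median of 0.01, which is the value of Timp3, turned with the values as deposited (-0.12), quantile normalization (-0.19) and loess (-0.07). Adam17 and Adam10, the best known of the shedding proteases and named after their values were seen, had log2 ratios of 0.05 and -0.28. Venous and high endothelial genes besides the members had 2 of 8 higher in the old and 1 in the young sample (median -0.54). Ch25h, a cholesterol hydroxylase, was at least 20.0-fold higher in the old sample (1471 against a signal below the floor), Ltbr 2.14-fold, and Gcnt1 was on the young side as above. The venous transcription factor gene Nr2f2, named after its value was seen, was within 2-fold (6292 and 8043, log2 ratio -0.35), beside at least 5.58 for Ackr1 and -2.02 for Selp.

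Genes up to 2 places from the members in the RefSeq order were named by place, those above the floor on at least 1 array. Beside Icam1, Mrpl4 had a log2 ratio of 0.30, S1pr2 -0.05, and the relative Icam4 had 76.8 in the old sample, just above the floor. Beside Vcam1, Extl2 had -0.42 and Slc30a7 -0.18, while Cdc14a was 4.88-fold higher in the old sample. Beside Ackr1, Cadm3 had 171 in the old sample and a signal below the floor in the young (at least 2.31-fold).

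Neighbours of the other adhesion genes lay on either side. Beside Sele, which was higher in the old sample, Mettl18 had -0.99 and BC055324 at most -0.26. Sele and Selp themselves lie 2 places apart, with at least 2.05 and -2.02. Beside Selp, F5 and Slc19a2 had -0.90 and -0.88, on the young side with it but within 2-fold. Beside Cd34, higher in the young sample, Plxna2 had 0.49, Cr1l 0.74 and Cd46 at least 0.21. Beside Cd99l2, which was within 2-fold, Mtm1 (-1.23) and Hmgb3 (-1.55) were higher by 2-fold or more in the young sample and Mtmr1 had 0.43. Beside Icam2, Ern1 had -0.58 and Tex2 0.43, beside Podxl, Mkln1 had 0.12 and Plxna4 0.07, and beside Madcam1, Tpgs1 had -0.01 and Cdc34 -0.29.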

How the data were processed

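RNA of 2 samples was measured on 1-colour Affymetrix arrays. The authors deposited linear MAS5 intensity for each probe set, made with GCOS 1.4 per the submitters' processing notes. After trimming 2% from either end, the deposited values averaged 500.0 in each array. Of 45101 probe sets, 64 controls were left out. The 2016 platform annotation gave 34958 probe sets 1 gene symbol, 932 several and 9211 none, and only the first kind was named. Depth does not apply to arrays, and their number limits the precision.

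Signals were scaled by 1.05 (old) and 0.956 (young), which set to 0 the median log2 ratio of probe sets above the median of each array (-0.13 as deposited). The probe set with the largest mean log2 signal stood for its gene. The ratio of probe sets of the same gene had an SD of 0.42 (log2; 4514 genes), which describes probes and not mice. The size rule was 2-fold. All members were named, with up to 3 genes with the largest ratio per list and known partners of members; others are said to be chosen after their values were seen. Members and lists were chosen with earlier results of these data known, and the motifs after the promoter sequences had been read. Alternatives were values as deposited, quantile normalization, loess (span 0.4), floors at the 25 and 75 percentiles (lower and higher floor), the mean over probe sets, leaving out _x_at and _s_at probe sets, and an offset of 0.5 of the floor added before log2. Promoter windows came from RefSeq (GRCm38.p6). The procedure was tested on simulated data, with changes placed only in genes whose young signal was well above the floor. The case of Vcam1, Sele and Ackr1, below the floor in the young sample, was not covered. Python 3.11.15, numpy 2.4.6, pandas 2.3.3, statsmodels 0.14.6 and matplotlib 3.10.9 were used.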

Additional observations from a re-analysis of the deposited data

How the results depend on the processing

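The count of adhesion genes higher by 2-fold or more in the old sample was 4 with the higher floor, where Sele was not measured, and with the mean over probe sets, where Podxl had 0.88, and 5 under the other 6 alternatives. The count in the young sample was 2 under all 8. The median log2 ratio of the measured genes moved to 0.50 with quantile normalization and to 0.73 under the lower floor, where Madcam1 came to be counted and the number of genes became even. It was also 0.73 with the higher floor, where Sele dropped out. Of 71 values of single genes under the alternatives, 66 moved by less than the 0.42 spread between probe sets, 5 moved by more, and 0 turned the sign of a gene past 2-fold. The 5 were values of Vcam1, Sele and Ackr1 under another floor or the offset. Of these, Vcam1 under the lower floor (5.81) was a measured ratio with both arrays above that floor, and the others were not measured on both sides. Madcam1 had -0.17 with quantile normalization and 0.01 under the lower floor. For the 6 members with 1 probe set, the mean over probe sets and leaving out _x_at and _s_at probe sets could not change the value. The median over all measured genes was 0.03, and -0.09 with the values as deposited and with quantile normalization. No paired analysis was possible because each group has 1 array and the labels give no replicate number. Leaving out a replicate was not possible either.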
